A study of Mus musculus with 28 samples.

Results

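The response of tdTomato+ mammary stroma to estrogen plus progesterone (E+P) was taken from 7 of the 28 libraries of the series, chosen by their labels as stromal, tdTomato and either untreated or E+P-treated. There were 4 libraries from untreated mice and 3 from E+P-treated mice, and each came from a different mouse. The animals were adult *PdgfrαCre R26mTmG* mice, labelled as C57BL/6. In this reporter a cell that has expressed Cre under *Pdgfra* control switches from membrane tdTomato to membrane GFP, together with its progeny. The tdTomato+ stroma is therefore everything in the stromal gate in which the reporter was not switched. Stromal cells were sorted from dissociated mammary glands as lineage-negative, CD49f- and EpCAM- cells. Hormones came from implanted pellets, for which the methods state 0.14 mg of estradiol with 14 mg of progesterone over 14 days. That dose is given for wild-type females and is not repeated for the reporter mice. An age of 10 to 12 weeks is stated for the adult lineage tracing. The comparison asks how stromal cells not labelled as the *Pdgfra* lineage respond to the ovarian hormones.

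Estrogen and progesterone act through nuclear receptors, encoded by *Esr1* and *Pgr*, that bind DNA and change the transcription of target genes. In the mammary gland these receptors are found in a part of the luminal epithelium and in stromal cells, and much of the proliferative response of the epithelium is passed on by paracrine signals such as amphiregulin and Wnt4. Stroma that lies outside the *Pdgfra* lineage includes pericytes and vascular smooth muscle, which wrap vessels and are marked by *Rgs5*, *Myh11* and *Notch3*.

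The labelled cells were first checked against marker genes. *Rgs5* was counted at between 1318 and 2855 CPM (read counts scaled to a common library size by the trimmed mean of M values), *Myh11* at between 1301 and 4802 CPM and *Notch3* at between 670 and 1022 CPM in the 7 libraries. *Pdgfra*, the gene that drives the Cre, stood at 210, 42.1, 257 and 90.8 CPM in untreated libraries 1 to 4 and at 44.3, 34.4 and 98.4 CPM in E+P libraries 1 to 3, against means of 1966 and 2346 CPM in GFP+ stroma of the same mice. *Adipoq*, the adipocyte marker, had no count in 5 of the 7 libraries and at most 1.25 CPM. *Pax7* and *Myod1*, markers of muscle satellite cells and myoblasts, were at between 68.4 and 184 CPM and between 12.6 and 69.5 CPM in the 7 libraries. The satellite and myoblast list of 10 genes summed to means of 746 CPM without and 658 CPM with hormones, against 253 and 215 CPM in GFP+ stroma. The tdTomato+ stroma carried the defining RNA of pericytes and smooth muscle, and it also held RNA of other cells, among them satellite cells.

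Skeletal muscle RNA was abundant and uneven. The summed level of 40 muscle fibre genes was 26659, 32498, 10933 and 6970 CPM in untreated libraries 1 to 4 and 29851, 54369 and 17507 CPM in E+P libraries 1 to 3. The groups overlapped. Of 38 tested members 36 had a positive log2 fold change for E+P, against 7875 of 16502 over all genes, with a median of 0.89 against −0.02. These genes share the muscle RNA of each library, so their signs are not separate observations. *Myh1*, a fast myosin heavy chain, was the only member whose libraries did not overlap between the groups, at between 19.7 and 266 CPM untreated and between 454 and 909 CPM with E+P.

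The fibroblast and preadipocyte list of 20 genes went the other way. Its sum was 6246, 3216, 7697 and 3655 CPM without hormones and 3176, 2489 and 3021 CPM with E+P, so that every E+P library lay below every untreated one. As a share of the same sum in GFP+ stroma, these means were 10.3% without hormones and 4.59% with E+P. The mean sum in GFP+ stroma was itself higher with E+P, at 50378 CPM without and 63018 CPM with hormones, so both sides of this share moved. Of the 20 genes, 13 were lower at an unadjusted p under 0.05 and 1, *Icam1*, was higher, and the median log2 fold change was −1.08 (4.49% of all genes were higher and 5.9% lower at this level, as given below). *Dpt* and *Pi16*, both markers of fibroblasts, were among the 13, as were the collagen genes *Col1a1*, *Col1a2* and *Col3a1*. These 3 and *Col15a1* also stand in the matrix lists below.

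Endothelial RNA lay higher with E+P, although the gate excludes CD31+ cells. The 17 genes of this list summed to 414, 548, 415 and 563 CPM without hormones and to 653, 883 and 723 CPM with E+P. Of 16 tested endothelial genes 6 were higher and 0 lower at an unadjusted p under 0.05, against 4.49% and 5.9% of all genes. The groups did not overlap for 4 of the 16, all higher, against 5.91% of all genes, and 4 of the 16 had a negative log2 fold change. *Cdh5*, which encodes the cadherin of endothelial junctions, was at between 9.49 and 30.6 CPM in untreated and between 38.1 and 105 CPM in E+P libraries. *Pecam1*, which encodes CD31, overlapped, at between 6.12 and 22.4 CPM and between 18.3 and 52.2 CPM. Luminal RNA was unequal among the libraries. The 19 luminal genes summed to 107, 432, 678 and 41.1 CPM in untreated libraries 1 to 4, against 34.9, 80.1 and 38.1 CPM with E+P, and *Krt8* reached 77.9 and 119 CPM in untreated libraries 2 and 3. Of 17 tested luminal genes 11 were lower at an unadjusted p under 0.05, against 5.9% of all genes, and none had groups that did not overlap. The basal keratins *Krt14* and *Krt5* and the milk gene *Csn2* were at no more than 4.27 CPM in any of the 7 libraries. Fewer cells of a kind and less RNA per cell cannot be told apart in such sorted bulk samples. Several counts below are also given with the muscle or fibroblast list as a covariate, or without the libraries that stood apart in luminal or muscle RNA. Since the fibroblast sums did not overlap between the groups, values with that covariate cannot tell fibroblast RNA from treatment. The part of endothelial RNA in the results was not tested.

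**Figure D1:**
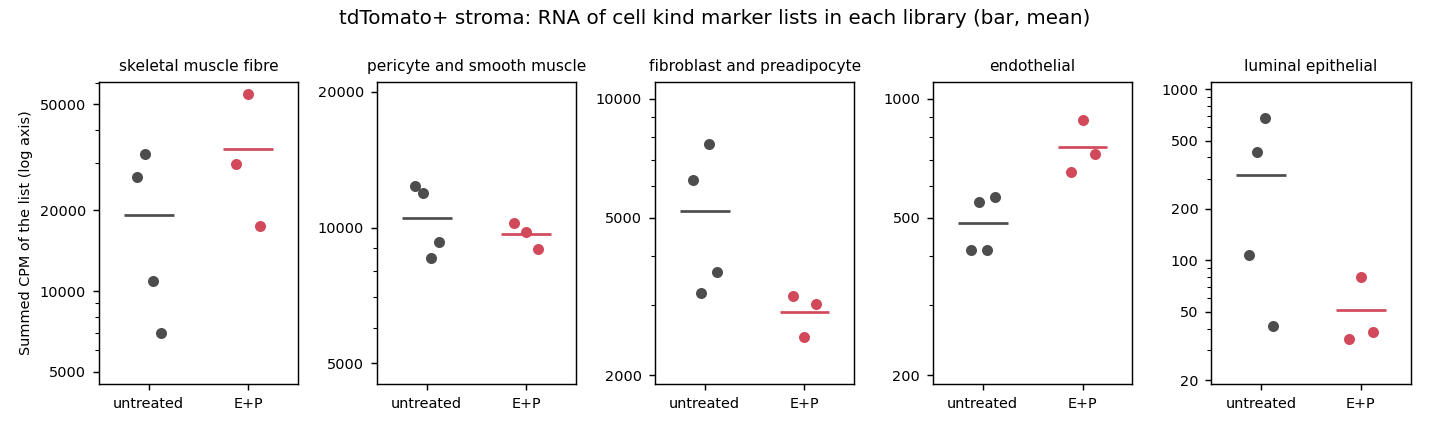
Summed CPM of 5 marker lists in each tdTomato+ stromal library, on log axes, with 4 untreated libraries in grey and 3 E+P libraries in red, and bars at the means. The fibroblast sums of the E+P libraries lie below and their endothelial sums above all untreated libraries, while the muscle, pericyte and luminal sums overlap.

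The libraries held between 10231034 and 22574393 counts, and every E+P library was deeper than every untreated one. The limit of 3 counts was worth 0.133 to 0.293 CPM. Such limits cover counting error alone, because no molecular identifiers are described for these libraries. Within a group, pairs of libraries had a Pearson's r of 0.904 to 0.953 across genes. The first principal component of the 16502 genes tested, with 26.9% of the variance, put the untreated libraries between −65.5 and −9.83 and the E+P libraries between 30.6 and 57.9. On the second component untreated library 4 stood apart, at −97.2.

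At the adjusted p of 0.01 that the study uses, no gene (0%) of 16502 passed in edgeR's quasi-likelihood test of the 7 libraries, and 1 gene (0.00606%), *Il16*, passed at 0.05. At an unadjusted p under 0.05 there were 1715 genes, or 10.4% of those tested, of which 741 (4.49%) were higher and 974 (5.9%) lower with E+P. The number was 2247 without untreated libraries 2 and 3, 1338 without untreated library 4 and E+P library 2, and 943 with the fibroblast list as a covariate. The libraries of the 2 groups did not overlap for 1845 genes (11.2%), with 976 (5.91%) higher and 869 (5.27%) lower. Other tools differed in their counts at 0.01, since limma-voom called none and the Wald test of DESeq2 called 61 genes higher and 107 lower. Without untreated library 4 the quasi-likelihood test called 3 genes, all lower, and without any other single library none. A fit that also included the 7 GFP+ stromal libraries, and so estimated the spread of each gene over 14 libraries, called 22 genes (0.124% of 17783), of which 5 (0.0281%) rose and 17 (0.0956%) fell in tdTomato+ stroma. The libraries of the 2 groups did not overlap for any of the 22, and 21 of them also had an unadjusted p under 0.05 in the 7-library fit. The remaining gene, *Duoxa1*, was not tested in that fit. Both fits hold the same 7 tdTomato+ libraries, so these counts came with the choice of genes and are no separate support. However, the tdTomato+ libraries varied more between mice than the GFP+ libraries, so the shared spread may understate theirs. None of the 21 tested in the 7-library fit passed 0.01 there, and genes said below to rise or fall with 14 libraries carry this limit.

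The named genes that were higher with E+P were led by *Il16*. This gene (ENSMUSG00000001741.12, GRCm38 chromosome 7, 83642825 to 83745726) encodes a chemoattractant cytokine for CD4+ cells. It was counted at 7.08, 5.43, 7.24 and 5.21 CPM in the untreated libraries and at 44.0, 29.97 and 27.8 CPM in the E+P libraries. The 4 untreated values lay close together and the lowest E+P value was well above them. The log2 fold change was 2.42 with a standard error of 0.25 (adjusted p = 0.0104, edgeR; 6.93e-05 in the fit of 14 libraries), and an exact two-sided permutation test over the samples gave p = 0.0286, the smallest that 3 against 4 libraries allow. The gene was named among those without overlap between the groups, so a permutation p at or near that minimum came with the choice. In GFP+ stroma of the same mice *Il16* also rose, from 26.01 ± 7.19 (SD, n = 4) to 83.3 ± 7.18 CPM (n = 3), a log2 fold change of 1.64 with an adjusted p of 2.63e-04 by edgeR. The difference between these 2 responses was 0.76 (adjusted p = 0.382, edgeR).

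*Rab6b*, which encodes a small GTPase of Golgi transport, was at 7.71, 7.27, 5.93 and 14.1 CPM without hormones and at 27.5, 27.0 and 26.6 CPM with E+P. It rose in the fit of 14 libraries (1.62 on the log2 scale, adjusted p = 0.00754, edgeR) and did not pass in the fit of 7 (adjusted p = 0.0946). *Slc4a11*, which encodes a membrane transporter of the bicarbonate transporter family, was at 2.60, 4.82, 2.12 and 2.65 CPM without and at 18.2, 14.8 and 13.5 CPM with hormones, and it too passed only in the fit of 14 libraries (2.33, adjusted p = 0.00797, edgeR; 0.0579 with 7). In GFP+ stroma *Slc4a11* stayed at means of 1.46 and 1.25 CPM, but the difference between the responses, 2.58, did not pass the threshold (adjusted p = 0.0591). *Lnx2*, an E3 ubiquitin ligase gene, rose in the fit of 14 libraries by 1.14 (adjusted p = 0.00541, edgeR, and 0.0896 with 7), from between 24.0 and 38.6 CPM to between 64.6 and 73.4 CPM.

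*Rmrp*, the RNA component of the RNase MRP complex, was the most abundant of the named genes that were higher, at 521, 765, 753 and 658 CPM without hormones and 1453, 1768 and 1382 CPM with E+P (1.17, adjusted p = 0.0579, edgeR). *Rnu12* and *Gm25939*, both small nuclear RNA genes, also had libraries that did not overlap, and none of these 3 genes passed in either fit. The small RNA share of the counts was 1.00 to 2.96% without hormones and 1.30 to 1.76% with E+P. *Nfkbia*, the inhibitor of NF-κB, stood at between 213 and 281 CPM without and between 437 and 454 CPM with hormones (0.82, adjusted p = 0.0896, edgeR). *Ngfr*, the low-affinity neurotrophin receptor, stood at 11.8 ± 4.33 and 39.9 ± 10.1 CPM (1.75, adjusted p = 0.0896, edgeR), and in GFP+ stroma it rose by 5.11 (adjusted p = 0.00264). The other named genes of this direction were *Csmd1*, *Cemip2* and *Eml6*, with log2 fold changes between 1.03 and 1.58 and adjusted p between 0.0816 and 0.0946 (edgeR).

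Among the genes that were lower, *Esr1* is the receptor of the hormone given. *Esr1* (ENSMUSG00000019768.16, GRCm38 chromosome 10, 4611593 to 5005614) was counted at 79.9, 79.1, 85.7 and 66.9 CPM in untreated libraries and at 33.0, 40.2 and 31.0 CPM in E+P libraries. Every E+P library held less than the lowest untreated one. The log2 fold change was −1.19 with a standard error of 0.17 (adjusted p = 0.0579 with 7 libraries, 0.00813 with 14, edgeR). In GFP+ stroma *Esr1* fell from 103 ± 28.7 to 31.4 ± 1.21 CPM (log2 fold change −1.76, adjusted p = 9.6e-04, edgeR), and the 2 responses did not differ past the threshold (0.56, adjusted p = 0.469). Without hormones the level of *Esr1* in tdTomato+ stroma was 75.5% of that in GFP+ stroma, and the fibroblast list was at 10.3%. With the fibroblast list as a covariate the log2 fold change of *Esr1* was −1.10, and with the muscle list as a covariate it was −1.29. The fibroblast sums did not overlap between the groups, so that covariate cannot be separated from treatment. The cause of the lower *Esr1* was not tested.

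*Col15a1*, a collagen of basement membranes, was at 152, 132, 179 and 93.0 CPM without hormones and at 40.7, 40.0 and 51.9 CPM with E+P. It did not pass in the fit of 7 libraries (−1.67, adjusted p = 0.0579, edgeR), and it fell in the fit of 14 libraries (adjusted p = 0.00726). Its level was 14.4% of that in GFP+ stroma without hormones and 2.71% with E+P, and with the fibroblast list as a covariate its log2 fold change was −1.26. In GFP+ stroma the mean of *Col15a1* was 967 CPM without and 1631 CPM with hormones (0.72, adjusted p = 0.111, edgeR), so both sides of that share moved. *Tnxb*, which encodes the matrix protein tenascin-X, was at 647, 574, 692 and 617 CPM and at 368, 306 and 393 CPM, and it also fell in the fit of 14 libraries (−0.85, adjusted p = 0.0084, edgeR; 0.0934 with 7). *Igfbp5*, which binds insulin-like growth factors, stood at 1874, 1465, 1718 and 1986 CPM without and at 1132, 853 and 835 CPM with hormones (−0.93, adjusted p = 0.104, edgeR), and it fell in GFP+ stroma (log2 fold change −1.79, adjusted p = 1.01e-04).

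*Gfra1*, a receptor of glial cell line-derived neurotrophic factor, was at 12.7, 6.66, 9.24 and 12.5 CPM and at 1.95, 3.61 and 2.39 CPM (adjusted p = 0.00726 with 14 libraries, 0.104 with 7, edgeR). *Vill*, a villin-like gene, was at 6.18, 17.4, 21.8 and 5.50 CPM and at 1.05, 1.01 and 1.46 CPM (0.00813 and 0.0896). *Gabra3*, which encodes a subunit of the GABA-A receptor, fell from 22.4 ± 7.83 to 6.46 ± 2.53 CPM in the fit of 14 libraries (adjusted p = 0.0084, edgeR, and 0.122 with 7). Of the 17 genes that fell in that fit, 15 had a higher mean level in untreated GFP+ stroma than in untreated tdTomato+ stroma. The share of all genes that did so was not taken, so the count of 15 has nothing to be set against. Whether fibroblast RNA had a part in these falls was not tested. The remaining named genes of this direction were *Ucp2*, *Dhrs3*, *Zim1*, *Bmp3* and *Emd*, with log2 fold changes between −1.75 and −0.81 and adjusted p between 0.0896 and 0.104 (edgeR, 7 libraries). All 24 named genes passed 0.01 in the Wald test of DESeq2, and none passed with limma-voom.

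**Figure D2:**
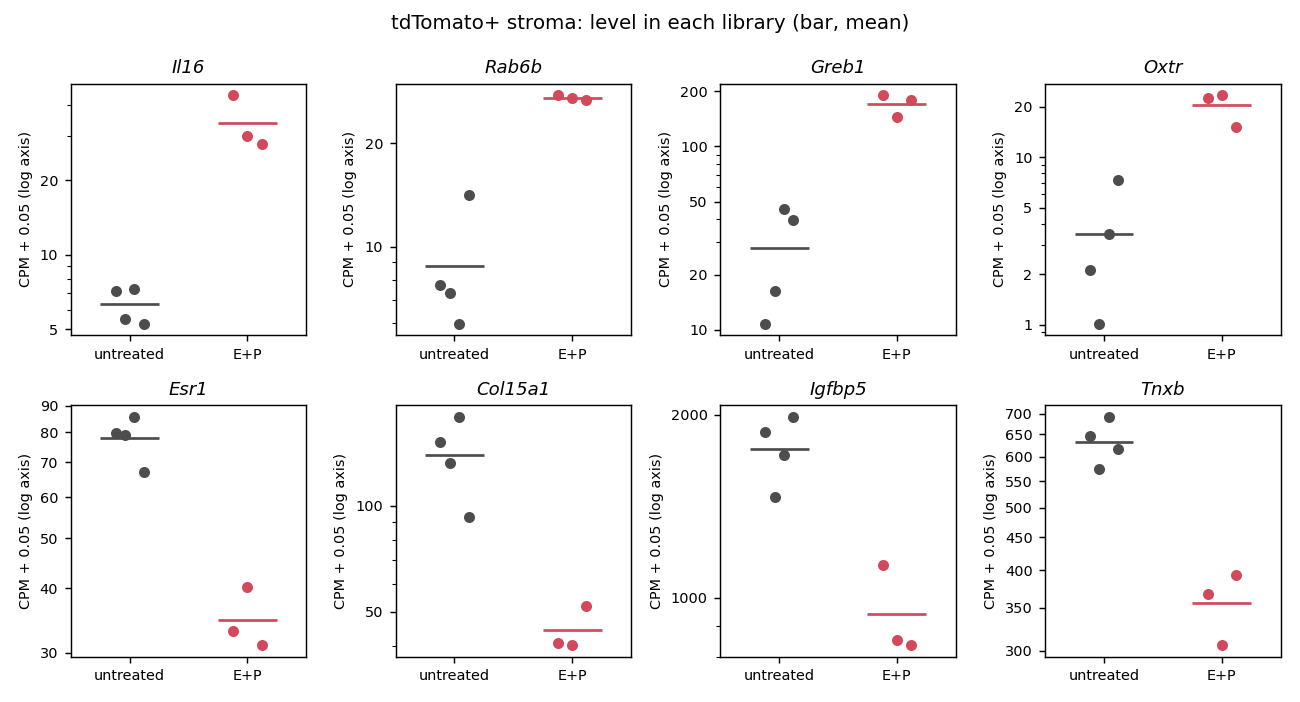
Level of 8 genes in each tdTomato+ stromal library, as CPM plus 0.05 on log axes, with 4 untreated libraries in grey and 3 E+P libraries in red, and bars at the means. The libraries of the 2 groups do not overlap in any panel, with *Il16* between 5.21 and 7.24 CPM without and between 27.8 and 44.0 CPM with hormones, and *Esr1* between 66.9 and 85.7 and between 31.0 and 40.2 CPM.

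Hormone receptors and known hormone targets were examined as lists. Of 17 tested receptors of steroid and pituitary hormones, 2 were higher and 2 lower at an unadjusted p under 0.05, against 4.49% and 5.9% of all genes. *Oxtr*, the oxytocin receptor, was at 2.06, 0.96, 3.43 and 7.21 CPM without hormones and at 22.6, 23.4 and 15.2 CPM with E+P (2.56, adjusted p = 0.157, edgeR). *Oxtr* was at means of 3.63 and 0.98 CPM in GFP+ stroma, where the log2 fold change was −1.93 (adjusted p = 0.0221), and the difference between the responses was 4.47 (adjusted p = 0.0131), just outside the threshold. *Nr3c1*, the glucocorticoid receptor, was at between 147 and 196 CPM and between 216 and 233 CPM (0.35, adjusted p = 0.429, edgeR).

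*Pgr*, the progesterone receptor gene, is a target of the estrogen receptor in many tissues. It was counted at 4.21, 27.4, 51.5 and 0.57 CPM without hormones and at 5.51, 8.23 and 5.31 CPM with E+P, so the groups overlapped (−1.75, adjusted p = 0.671, edgeR). Untreated libraries 2 and 3, which held the most luminal RNA, also held the most *Pgr*, and without these 2 libraries the log2 fold change was 1.38. *Prlr*, the prolactin receptor, was at 29.6, 141, 198 and 0.47 CPM without hormones and at 0.55, 3.66 and 0.06 CPM with E+P, highest in the same 2 libraries.

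Of 31 tested targets of estrogen and progesterone, 5 were higher and 2 lower at an unadjusted p under 0.05, against 4.49% and 5.9% of all genes. The count of 5 was 3 without untreated library 4 and E+P library 2. *Greb1*, a gene induced by estrogen in breast cells, was at 10.8, 16.2, 45.3 and 39.7 CPM in untreated libraries and at 191, 144 and 179 CPM in E+P libraries. The lowest E+P value lay above the highest untreated one, while the untreated values spread widely (2.59, standard error 0.50, adjusted p = 0.19, edgeR; exact permutation p = 0.0286). In GFP+ stroma *Greb1* rose by 3.54 (adjusted p = 1.46e-04, edgeR). *Stc2*, which encodes the secreted glycoprotein stanniocalcin-2, was lower, at 24.8, 28.4, 34.5 and 4.55 CPM against 3.46, 2.41 and 3.33 CPM (−2.93, adjusted p = 0.17). The other members at an unadjusted p under 0.05 were *Bmp2*, *Egr1*, *Tfrc* and *Wnt4*, all higher, and *Areg*, which was lower and also belongs to the luminal list. No member of 33 tested proliferation genes reached an unadjusted p under 0.05 in either direction, and their median log2 fold change was 0.24.

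Start-site sequences were read from RefSeq (GRCm38.p6). *Greb1* and *Oxtr* are shown as known hormone-responsive genes and *Il16* as the only gene past 0.05. Of the 118 named genes 79 matched, with 98 windows of 300 bases. The full estrogen response element (GGTCA, any 3 bases, TGACC) and the element shared by progesterone and glucocorticoid receptors (GNACA, any 3 bases, TGTNC), sought on both strands, were in none of these windows, and in 0.0701% and 0.475% of all 32817 windows. The single-arm estrogen element TGACCT, sought on both strands and overlapping the full one, was in 17 of the 98 windows and in 16.3% of all windows. For *Oxtr*, 1 of 2 start sites of *Greb1* and 1 of 3 of *Il16*, which hold a single-arm element, the window is shown as the 250 bases before a start site, 5′ to 3′ on the gene's strand, with that element or its reverse complement in capitals. These letters are a description and not a bound site.
Greb1, chr12:16800887-16801136, minus strand: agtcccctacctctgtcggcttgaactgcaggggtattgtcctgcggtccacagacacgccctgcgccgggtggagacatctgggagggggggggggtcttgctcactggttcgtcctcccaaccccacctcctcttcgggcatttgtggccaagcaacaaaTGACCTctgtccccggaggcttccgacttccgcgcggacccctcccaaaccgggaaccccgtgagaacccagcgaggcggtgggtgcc
Oxtr, chr6:112489826-112490075, minus strand: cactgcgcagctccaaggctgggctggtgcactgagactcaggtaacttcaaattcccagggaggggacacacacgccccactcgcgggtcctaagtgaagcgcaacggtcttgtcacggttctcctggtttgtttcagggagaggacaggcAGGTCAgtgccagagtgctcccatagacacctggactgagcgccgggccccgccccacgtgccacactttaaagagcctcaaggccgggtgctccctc
Il16, chr7:83655496-83655745, minus strand: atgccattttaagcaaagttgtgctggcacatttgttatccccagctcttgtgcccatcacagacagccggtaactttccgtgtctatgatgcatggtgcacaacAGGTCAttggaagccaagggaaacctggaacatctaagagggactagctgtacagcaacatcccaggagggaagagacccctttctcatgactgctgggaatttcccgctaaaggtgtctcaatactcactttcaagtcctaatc

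The single-arm element began 88 bases before this start of *Greb1*, 98 before that of *Oxtr* and 145 before this start of *Il16*. It was in 1 of 8 windows of the 12 named genes that were higher and in 2 of 15 windows of the 12 that were lower.

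The response of the GFP+ stroma, sorted from the same 7 mice, served as the comparison. Within its own 7 libraries 187 of 15199 genes passed (1.23%), and 2177 (14.3%) had an unadjusted p under 0.05. Of the 187 genes, 171 were tested in tdTomato+ stroma. There 119 (69.6%) had the same sign, and 48 (28.1%) had the same sign with an unadjusted p under 0.05, against 7 with the opposite sign. The same sign was found for 63 of the 72 genes that fell in GFP+ stroma and for 56 of the 99 that rose. Over all 16502 genes tested in tdTomato+ stroma, 8627 had a negative and 7875 a positive log2 fold change, so the genes that rose lay nearer to this background. The same sign with an unadjusted p under 0.05 was found for 30 of the 72 genes that fell (41.7%), where 5.9% of all genes were lower. For genes that rose it was found for 18 of 99 (18.2%), where 4.49% of all genes were higher. The libraries of tdTomato+ stroma did not overlap in the direction of the GFP+ stroma for 37 of the 171 genes (21.6%) and in the opposite direction for 6, where 5.91% of all genes did not overlap and were higher and 5.27% lower. The number 48 was 51 with the muscle list as a covariate and 31 with the fibroblast list as a covariate, and between 43 and 56 when each library was left out in turn.

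Besides *Il16*, *Rab6b*, *Greb1*, *Esr1* and *Igfbp5*, the genes of this kind included *Gpam*, the first enzyme of triglyceride synthesis. *Gpam* was at 38.0, 28.8, 53.6 and 17.0 CPM without hormones and at 97.5, 90.4 and 72.6 CPM with E+P in tdTomato+ stroma (1.31, adjusted p = 0.226, edgeR), and it rose by 1.44 in GFP+ stroma (adjusted p = 7.1e-05). *Itga11*, a collagen-binding integrin subunit, was at 44.5 ± 6.27 and 24.2 ± 1.62 CPM (−0.90, adjusted p = 0.132, edgeR) and fell in GFP+ stroma (log2 fold change −1.30, adjusted p = 0.00585). *Plod2*, which hydroxylates collagen lysines, was at 79.9 ± 11.2 and 127 ± 14.2 CPM (0.65, adjusted p = 0.2, edgeR) and rose by 1.27 in GFP+ stroma (adjusted p = 0.00541).

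**Figure D3:**
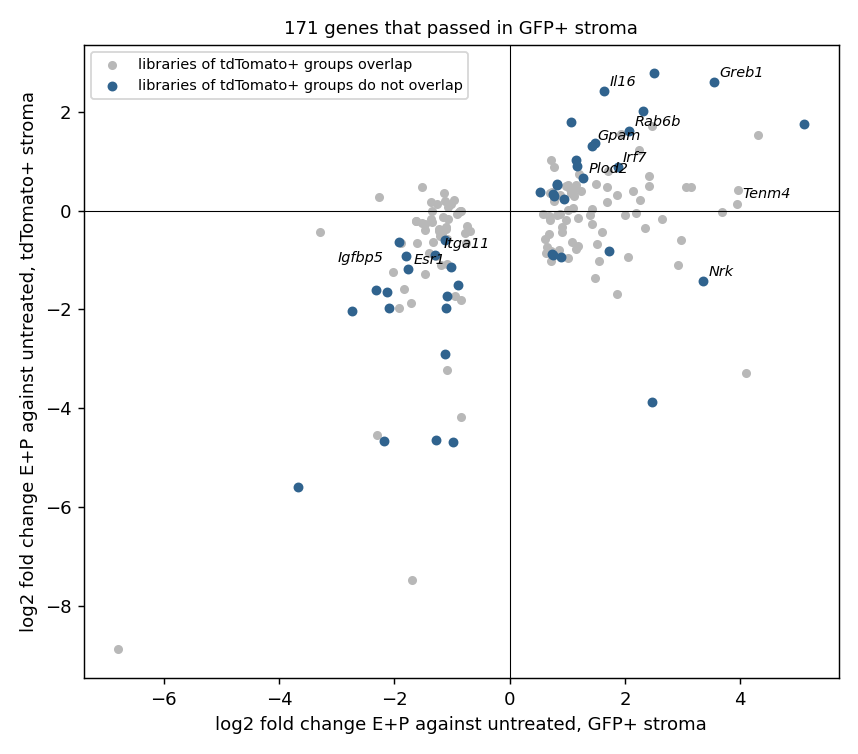
Log2 fold change for E+P in GFP+ stroma (horizontal) and in tdTomato+ stroma (vertical) for the 171 genes that passed an adjusted p of 0.01 in GFP+ stroma and were tested in both. Blue points are genes whose tdTomato+ libraries do not overlap between untreated and E+P. On both axes 119 of the 171 genes have the same sign, 63 of 72 that fell and 56 of 99 that rose in GFP+ stroma. Over all 16502 genes tested in tdTomato+ stroma, 8627 were negative and 7875 positive.

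Whether a response differed between the subsets was tested as an interaction over the 14 stromal libraries. It passed for 8 of 17783 genes (0.045%), all with a lower response in tdTomato+ than in GFP+ stroma. With the mouse as a block, which pairs libraries sorted from the same animal, 13 genes (0.0731%) passed, 1 of them in the other direction. Leaving out a mouse gave between 1 and 13 genes, with 2 without untreated mouse 1, 5 without untreated mouse 3, 13 without untreated mouse 4, and 1, 2 and 1 without E+P mice 1, 2 and 3. *Nrk* passed in all 7 of these fits, *Ano4* in 4, *Col15a1* and *Heph* in 2 each, and *Tenm4*, *Gfra1* and *Vwa1* in 1 each. With the mouse block *Gfra1* (adjusted p = 0.0195, edgeR) and *Vwa1* (0.0116) did not pass.

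*Nrk*, which encodes a Nik-related kinase, was at 5.02, 2.72, 4.24 and 3.98 CPM without hormones and at 1.85, 1.20 and 1.46 CPM with E+P in tdTomato+ stroma (−1.42, adjusted p = 0.322, edgeR). In GFP+ stroma it rose from 6.90 ± 2.76 to 73.2 ± 15.0 CPM, and the difference between the responses was −4.80 (adjusted p = 8.54e-05, edgeR). *Tenm4*, a teneurin gene, was at 69.7, 59.6, 51.9 and 57.9 CPM and at 94.4, 52.1 and 53.9 CPM, with overlapping groups, whereas it rose from 1.91 ± 0.945 to 31.0 ± 10.2 CPM in GFP+ stroma (difference −3.82, adjusted p = 0.00369, edgeR). The mean level of *Tenm4* lay higher in tdTomato+ than in GFP+ stroma in both treatments.

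*Gfra1* fell in the 14-library fit of tdTomato+ stroma and had a log2 fold change of 0.78 in GFP+ stroma (adjusted p = 0.054), and the responses differed (−2.76, adjusted p = 0.00756, edgeR). *Ano4*, a gene of the anoctamin family, had 8, 6, 14 and 14 counts in untreated tdTomato+ libraries and 1 count in each E+P library, and rose in GFP+ stroma from 2.03 ± 0.955 to 11.7 ± 1.40 CPM (difference adjusted p = 0.00132, edgeR). Since the E+P libraries lay under the floor of 3 counts, no fold is given for tdTomato+ stroma. A further 3 genes, named after their values were seen, were *Col15a1*, *Heph* and *Vwa1*. *Heph*, the iron oxidase hephaestin, overlapped between the tdTomato+ groups at 8.27 ± 3.23 and 11.7 ± 3.04 CPM and rose by 3.06 in GFP+ stroma (adjusted p = 5.15e-09, edgeR).

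**Figure D4:**
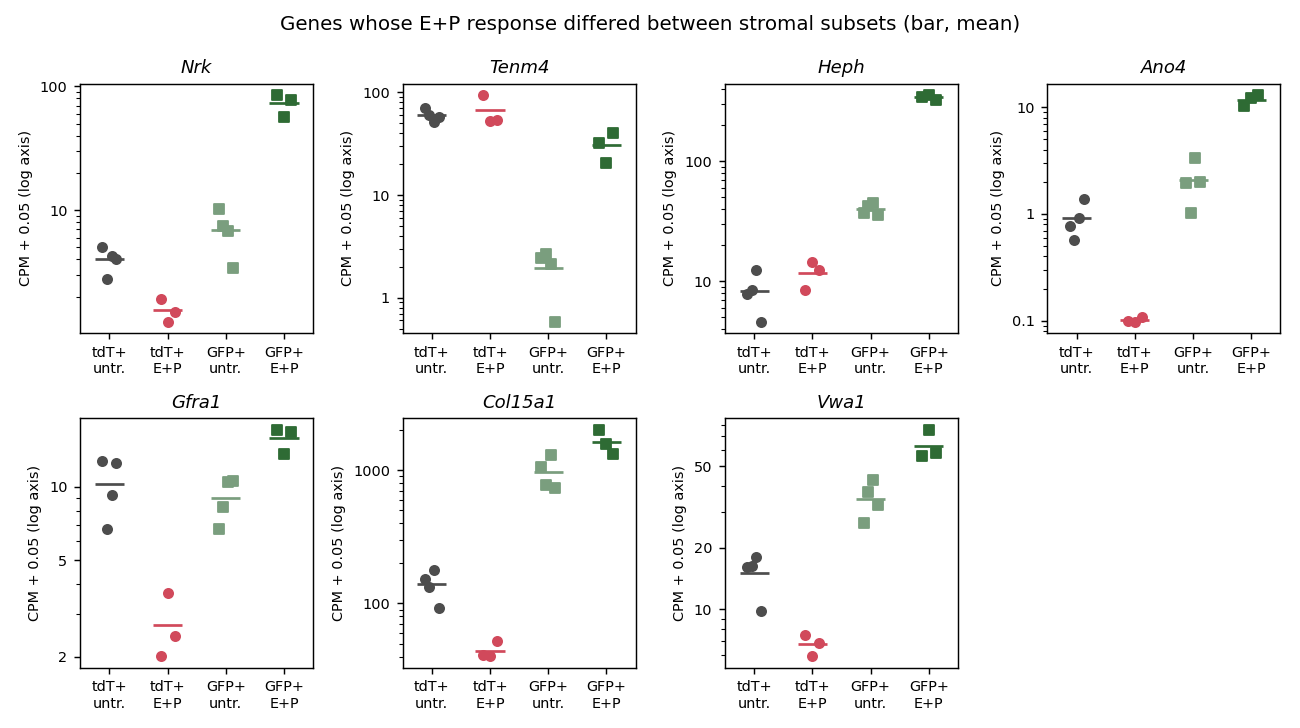
Level of 7 genes whose E+P response differed between the stromal subsets, as CPM plus 0.05 on log axes, in tdTomato+ (circles) and GFP+ stroma (squares) of the same 4 untreated and 3 E+P mice, with bars at the means. *Nrk* and *Heph* are higher with E+P in all GFP+ libraries, while the tdTomato+ groups overlap for *Tenm4*, with means of 59.8 and 66.8 CPM.

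The pathway lists are described by their counts, against a median over all genes of −0.02, and no member of any list passed 0.01 in the fit of 7 libraries. The counts are of members at an unadjusted p under 0.05, where 4.49% of all genes were higher and 5.9% lower. The lists, here and above, were written by hand with earlier results of these data known. A count above the share of all genes is therefore not an unbiased excess. Members named without values were chosen after their values were seen. Genes of the interferon response and MHC class I were higher at an unadjusted p under 0.05 for 9 of 29 members, against 4.49% of all genes, and lower for none, with a median of 0.36. *Irf7*, a transcription factor of the type I interferon response, was at 15.3, 16.6, 24.8 and 12.04 CPM without hormones and at 35.7, 32.5 and 28.2 CPM with E+P (0.88, adjusted p = 0.266, edgeR). *H2-K1*, a class I heavy chain gene, was at 264 ± 26.1 and 354 ± 14.5 CPM (0.41, adjusted p = 0.324), and its partner *B2m* and the antiviral genes *Bst2* and *Isg15* were also among the 9. *Irf7* rose in GFP+ stroma, by 1.87 (adjusted p = 8.6e-04, edgeR). The count of 9 was between 7 and 12 with muscle or fibroblast RNA as a covariate or without the libraries that stood apart in luminal or muscle RNA.

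Immediate early and dissociation stress genes were higher for 8 of 30 members, against 4.49% of all genes, and lower for none. Their median was 0.20. *Ier3* was at 48.4, 53.1, 61.1 and 33.9 CPM without and at 90.0, 71.0 and 90.6 CPM with hormones (0.75, adjusted p = 0.244, edgeR). *Egr1*, *Junb*, *Socs3* and *Zfp36* were among the 8. With the muscle list as a covariate the count was 4, and without untreated library 4 and E+P library 2 there were 3.

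Cholesterol synthesis genes were lower for 7 of 22 members, against 5.9% of all genes, and higher for none, with a median of −0.51. *Idi1*, the isomerase of the isoprenoid branch, was at 15.5, 13.1, 12.1 and 11.7 CPM without and at 6.56, 6.40 and 6.24 CPM with hormones (−1.05, adjusted p = 0.2, edgeR). *Msmo1*, the sterol methyl oxidase, was at 52.2 ± 9.91 and 31.7 ± 1.73 CPM, and *Dhcr7* and *Lss* also had libraries that did not overlap. In GFP+ stroma the median of the list was −0.08. The count of 7 was 3 without untreated libraries 2 and 3 and 1 with the fibroblast list as a covariate.

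Genes of the unfolded protein response and secretion were lower for 4 of 22 members, against 5.9% of all genes. Of the 22 members 18 were negative, against 8627 of 16502 over all genes, with a median of −0.21. The chaperone gene *Hsp90b1* was at 1614 ± 184 and 1171 ± 67.7 CPM and *Ddit3*, which encodes the stress factor CHOP, at 157 ± 41.9 and 98.4 ± 7.98 CPM. TGF-β and BMP signals were lower for 9 and higher for 4 of 38 members, against 5.9% and 4.49% of all genes. The 9 included the antagonist *Chrdl1* and the ligand *Gdf10*, at 19.5, 11.3, 41.4 and 24.4 CPM without and 3.91, 4.71 and 10.6 CPM with hormones, while *Tgfb1*, *Bmp2*, *Ltbp2* and *Smad7* were higher. With the fibroblast list as a covariate none of the 38 was lower at this level.

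Wnt signals were lower for 6 and higher for 1 of 31 members, against 5.9% and 4.49% of all genes. *Wnt2* had between 7 and 92 counts in the untreated libraries and 0 counts in the 3 E+P libraries, at least 76.7-fold lower when 3 counts over the E+P group are taken as the floor (adjusted p = 0.104, edgeR). Without untreated library 1, which held the most, it was at least 49.3-fold lower. Its mean was 9.57% of that in GFP+ stroma without hormones and 0% with E+P, where the fibroblast list was at 10.3% and 4.59%. *Dkk3*, a secreted protein related to Wnt antagonists, was at 25.5 ± 7.13 and 10.96 ± 1.01 CPM (−1.24, adjusted p = 0.151, edgeR), and *Wnt4* was the member that was higher. Axon guidance cues were higher for 3 and lower for 7 of 35 members, with *Epha3* at 34.5, 22.8, 46.9 and 38.2 CPM without and 11.9, 12.1 and 19.7 CPM with hormones, and *Ntn1*, which encodes netrin 1, at 30.05 ± 9.01 and 11.04 ± 5.74 CPM.

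Fibrillar collagens split, with *Col8a1*, *Col12a1* and *Col6a3* higher and *Col1a1*, *Col1a2*, *Col3a1*, *Col14a1* and *Col24a1* lower at an unadjusted p under 0.05, of 16 tested. *Col8a1* was at 10.7, 23.8, 19.5 and 29.1 CPM without and at 56.8, 32.2 and 47.9 CPM with hormones (1.12, adjusted p = 0.254, edgeR). Of 20 pericyte and smooth muscle genes, 1 was higher, *Des*, and 1 lower, *Cox4i2*, near the 4.49% and 5.9% of all genes. *Cox4i2*, which encodes a subunit of cytochrome c oxidase, was at 15.9, 17.5, 13.7 and 19.3 CPM without and 7.12, 10.1 and 6.30 CPM with hormones. *Des* is also a muscle gene, and its log2 fold change of 0.74 was 0.30 with the muscle list as a covariate.

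The PDGF ligands and receptors, which the study singles out, did not pass in tdTomato+ stroma. *Pdgfrb* was at 441, 652, 528 and 754 CPM without and 692, 698 and 588 CPM with hormones. Also with overlapping groups, *Pdgfa* was at 68.4 ± 12.3 and 92.1 ± 21.3 CPM, *Pdgfc* at 7.17 ± 2.44 and 3.65 ± 1.15 CPM and *Pdgfd* at 23.2 ± 5.36 and 15.9 ± 0.915 CPM, of which *Pdgfc* and *Pdgfd* were lower at an unadjusted p under 0.05. The progenitor gene *Procr* overlapped at 1209 ± 376 and 1100 ± 176 CPM, and *Vim* at 1098 ± 167 and 1302 ± 92.4 CPM. *Dlk1* and *Alx4* were at means of no more than 3.38 and 1.62 CPM.

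Of the remaining lists, VEGF and angiopoietin signals were higher for 4 and lower for 3 of 18 members, with *Angpt2* at 78.0 ± 6.12 and 56.8 ± 6.72 CPM and *Angpt1* among the 4, and 2 of the 4, *Kdr* and *Tie1*, are endothelial genes. PDGF, FGF and EGF signals were higher for 1 of 24, *Tgfa*, and lower for 7. Basement membrane genes were higher for 3 and lower for 5 of 23, and focal adhesion genes were higher for 4 and lower for 2 of 30. Over all genes, 4.49% were higher and 5.9% lower at an unadjusted p under 0.05. The remaining pathway lists had no more than 3 members at this level in either direction.

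**Figure D5:**
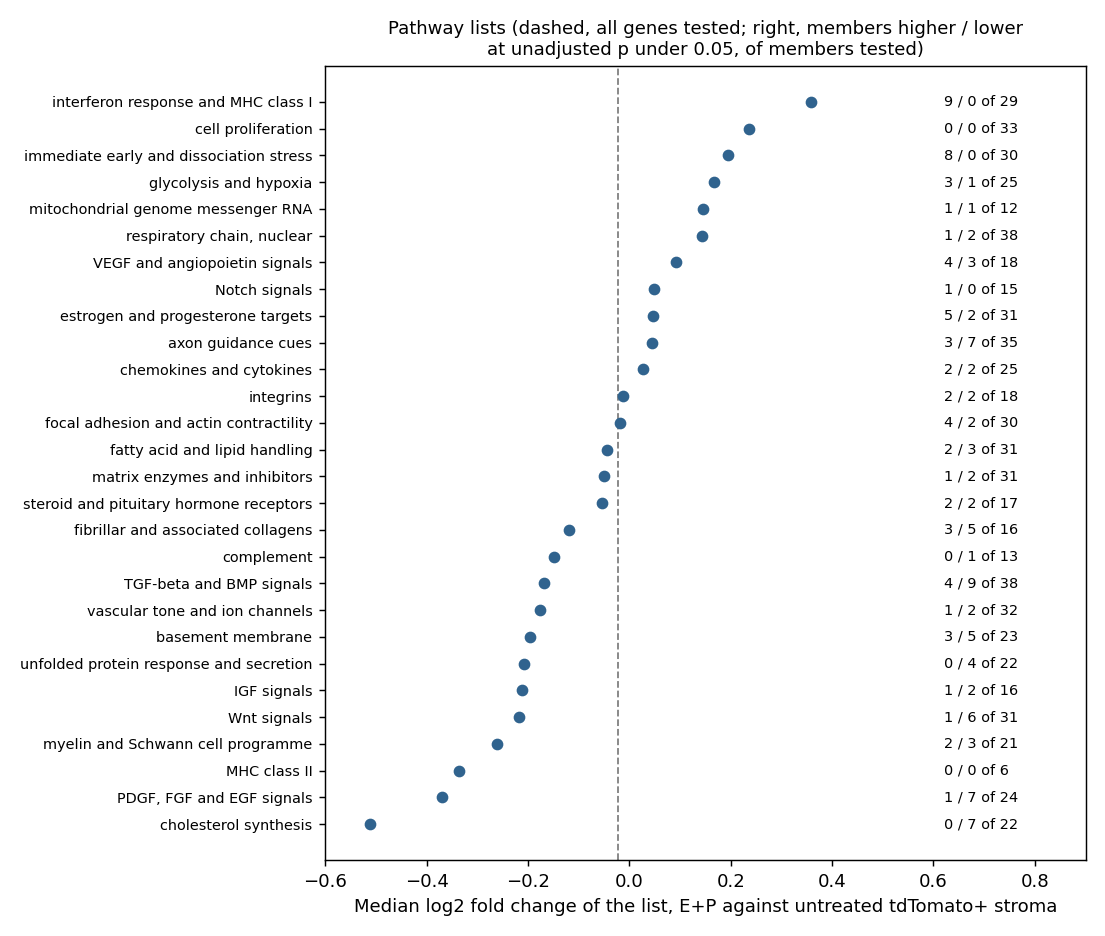
Median log2 fold change for E+P in tdTomato+ stroma of each of 28 pathway lists (points), with the median of all 16502 genes tested as a dashed line at −0.02. The numbers at the right give the members higher and lower at an unadjusted p under 0.05 (4.49% and 5.9% of all genes). The interferon list lies highest at 0.36 with 9 of 29 higher, and cholesterol synthesis lowest at −0.51 with 7 of 22 lower.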

How the data were processed

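Stranded total RNA libraries of low input were sequenced in pairs. Per the labels the authors aligned with STAR 2.5.2a to GRCm38.p5 and deposited a table of raw read counts per gene, not normalized. No molecular identifiers are described. The GENCODE release is not given in the sources used here. Symbols and coordinates come from GENCODE M21, which held 50376 of 50600 gene IDs. RNA integrity varied widely between samples, per the labels.

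From these counts, the 7 tdTomato+ stromal libraries (E+P against untreated) were tested with edgeR 4.0.16 in R 4.3.3: TMM scaling, filterByExpr, robust quasi-likelihood F-test, two-sided, Benjamini-Hochberg over all genes, called at 0.01. Log2 fold changes come from edgeR, standard errors from the F statistic, and CPM are TMM-scaled over 28 libraries. The replicates are different mice. Interaction tests used 14 stromal libraries. GFP+ and tdTomato+ libraries of a mouse are paired by animal, and their deviations correlated at 0.0176 to 0.131. Single genes were tested by exact permutation of 35 splits on log2 CPM with a prior count of 2.

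The genes named are 12 in each direction with the smallest unadjusted p once none passed 0.01, among those at 10 CPM or more and without overlap between groups (*Il16*, the only gene at 0.05, comes first), 2 members of each list, 15 genes set by the study or treatment, and up to 5 interaction genes. The results of 2 of the genes so chosen are not reported here. The 14 cell kind and 28 pathway lists were written by hand. The members and lists were chosen with earlier results of these data known. Scripts were tested on simulated counts. Alternatives were other scalings, DESeq2 1.42.0, limma 3.58.1 (voom, with and without sample weights), no filter, blocks, covariates, thinning and leaving out libraries.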

Additional observations from a re-analysis of the deposited data

Results flagged for a closer look

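In 132 groups of 4 untreated libraries examined, 4 values stood apart from the other 3, where chance gives about 1 in 20. *Pdgfb* was at 0.379 CPM in untreated library 4, against 2.72 to 2.87 CPM in the others. *Icam1* was at 48.4 CPM in untreated library 1, against 93.7 to 102 CPM. *Ighm* was at 76.4 CPM and the lymphocyte list at 100 CPM in untreated library 2, against 5.21 to 7.55 and 16.8 to 22.6 CPM.

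For 7 genes shown here the E+P response differed between the subsets by the interaction test of edgeR. Once each mouse was a block, *Gfra1* (adjusted p = 0.0195, edgeR) and *Vwa1* (0.0116) did not pass. The log2 response in tdTomato+ minus that in GFP+ stroma was −6.365 for *Ano4*, −4.798 for *Nrk*, −3.819 for *Tenm4*, −2.764 for *Gfra1*, −2.61 for *Heph*, −2.402 for *Col15a1* and −2.026 for *Vwa1*. The value of *Ano4* rests on 1 count in each E+P library of tdTomato+ stroma and is no bound.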

How the results depend on the processing

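No gene passed 0.01 in tdTomato+ stroma. This became 1 higher gene with DESeq2 size factors in edgeR, with library size only, without the muscle list, with the pericyte list as a covariate or at 0.05. It became 61 higher and 107 lower with DESeq2, 140 and 216 without the filter, 5 and 17 with all 4 stromal groups, and 1 and 13 with the replicate block. Without each library in turn there were 0 higher and 0 to 3 lower. The replicate numbers do not pair these libraries, since the deviations of same-numbered libraries correlated at −0.0235 to 0.1 and 1 of 3 was highest with its own number. The 1715 genes at an unadjusted p under 0.05 became 3051 without the filter, 2780 with 4 groups and 943 with the fibroblast list as a covariate.

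The interaction (0 genes higher, 8 lower) became 21 and 90 with DESeq2, 0 and 3 with limma-voom, 1 and 3 with its sample weights, 151 and 355 without the filter, 1 and 12 with the replicate block by mouse and 8 and 35 at 0.05, and 0 to 2 and 1 to 11 without each mouse. The 187 genes of GFP+ stroma became 512 with DESeq2, 755 without the filter, 41 with 4 groups and 465 at 0.05, and 81 to 229 without each library. Where a setting moved a count, the cause was not tested.

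With the muscle list as a covariate 7 fibroblast genes (of 13) were lower and 4 immediate early genes (of 8) higher. With the fibroblast list as a covariate 1 fibroblast gene, 1 cholesterol gene (of 7) and 0 TGF-β genes (of 9) were lower, 1 endothelial gene (of 6) was higher, and 31 genes (of 48) followed GFP+ stroma. This covariate is the sum of the same fibroblast genes, so a lower count of those genes was fixed in advance. The sum also did not overlap between the groups, so the other counts cannot tell fibroblast RNA from treatment. Without untreated library 4 and E+P library 2 the counts were 8 fibroblast, 3 immediate early and 3 hormone target genes (of 5), and without untreated libraries 2 and 3 there were 3 cholesterol genes. The fibroblast covariate, thinning, leaving out pairs of libraries, and the counts over lists and over the genes of GFP+ stroma were chosen after seeing the data.

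Among single genes, 16 log2 fold changes that did not pass in tdTomato+ stroma changed sign. Without untreated libraries 2 and 3 *Pgr* was 1.375 and *Cma1* 0.6571. With the fibroblast list as a covariate *Pdgfra* was 0.358, *Pdgfrb* −0.1655 and *C1ra* 0.0055. *Procr* was 0.06399 with the replicate block, 0.1021 with the muscle list as a covariate, 0.07689 without untreated library 4 and E+P library 2, and −0.3179 to 0.04755 without each library. *Alx4* was −0.2852 and −0.7052 with limma-voom without and with sample weights, −0.219 with the pericyte list as a covariate, −0.1642 after thinning, and −0.4417 to 0.6882 without each library. *Tenm4* was −0.1847 to 0.298 without each library. Of the other alternatives for single genes, 2512 kept their direction and side of the threshold, 117 passed it and 43 lost it.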
